A study of Homo sapiens with 2 samples.

Results

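Lipocalin 2 and 8 genes of cellular iron handling were examined in 2 human gastric cancer cell lines, the highly metastatic line MKN45P and its parental line MKN45. The 9 genes are LCN2, TFRC, FTH1, FTL, SLC40A1, SLC11A2, IREB2, ACO1 and TF. They were chosen by symbol, taking every probeset of the array whose platform annotation gives exactly 1 gene symbol, and the large excess of LCN2 in MKN45P was already known when the group was drawn up. In all they had 179 probesets, of 286871 with exactly 1 symbol and 877986 on the array, and they are 9 of 18923 symbols. Total RNA of each line, grown in the same serum-containing medium, was hybridised to an Affymetrix exon array, 1 array per line, which reads each gene with several small groups of probes (probesets). With no replicate of either line there was no test, no p-value is given, and every difference is between these 2 arrays.

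Cells take up iron from transferrin (TF) through the transferrin receptor (TFRC) and carry it out of endosomes with the divalent metal transporter (SLC11A2). They store it in ferritin, a shell of heavy (FTH1) and light (FTL) chains, and release it through ferroportin (SLC40A1), the known exporter of iron. The iron regulatory proteins, encoded by ACO1 and IREB2, bind hairpins called iron-responsive elements (IRE) in ferritin, ferroportin and receptor mRNAs when iron is scarce, blocking translation of ferritin and ferroportin and protecting the receptor mRNA. Lipocalin 2 is a secreted protein of neutrophils and inflamed epithelia that binds iron-loaded siderophores and so withholds iron from bacteria.

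The values are log2 signals per probeset. The difference of a gene was taken at each probeset as MKN45P minus MKN45 and summarised by the median, and its interquartile range describes the spread between probesets within the arrays, not between cultures. A gene was called measured if it had 4 or more probesets and its median level (the mean of both arrays) reached 1.92, the median of all probesets, and a probeset had signal when its level was at or above 2.77, the 75th percentile. As the level is the mean of both arrays, a probeset can have signal through one line alone. Of the 9 genes 6 were measured; FTH1 and FTL had 3 probesets each, and the median level of TF was below 1.92. Values near the low end of the scale are compressed, so that differences there are smaller than those in RNA. Each array read the RNA of a whole culture, so fewer cells with a transcript and less of it per cell cannot be told apart.

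Values ran from 1.42 to 13.45 in MKN45P and from 1.42 to 13.48 in MKN45, and the median difference of 13130 measured genes was 0.03. All 8 epithelial markers had median levels above 2.77 in both lines, from 3.13 to 10.74 in MKN45P and from 3.31 to 10.26 in MKN45. The 7 measured ones had a median difference of 0.55, 5 of them being positive and 2 negative. ESRP1 (on the array as RBM35A) was at 1.04, TJP1 at 1.01 and EPCAM at 0.83. The keratin genes went the other way, KRT8 being at -0.21 and KRT18 at -0.08. KRT19, not measured because it had 2 probesets, was at -0.76. The part of these markers in the other results was not tested.

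Of the 6 measured genes, LCN2 was at least 2-fold higher in MKN45P and SLC40A1 was at least 2-fold lower. Of all 13130 measured genes, 4.58% were higher by this margin and 1.20% lower. Nothing is read from either count, each being 1 gene. LCN2 was chosen for its difference, and all members were chosen with earlier results of these data known. The other 4 measured genes were within 2-fold: SLC11A2 had a difference of 0.70, ACO1 of -0.16, TFRC of -0.29 and IREB2 of -0.33. The median of the 6 was -0.22. Ferritin and transferrin were read less well, FTH1 having 1 probeset with signal, FTL 2 and TF 4.

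**Figure D1:**
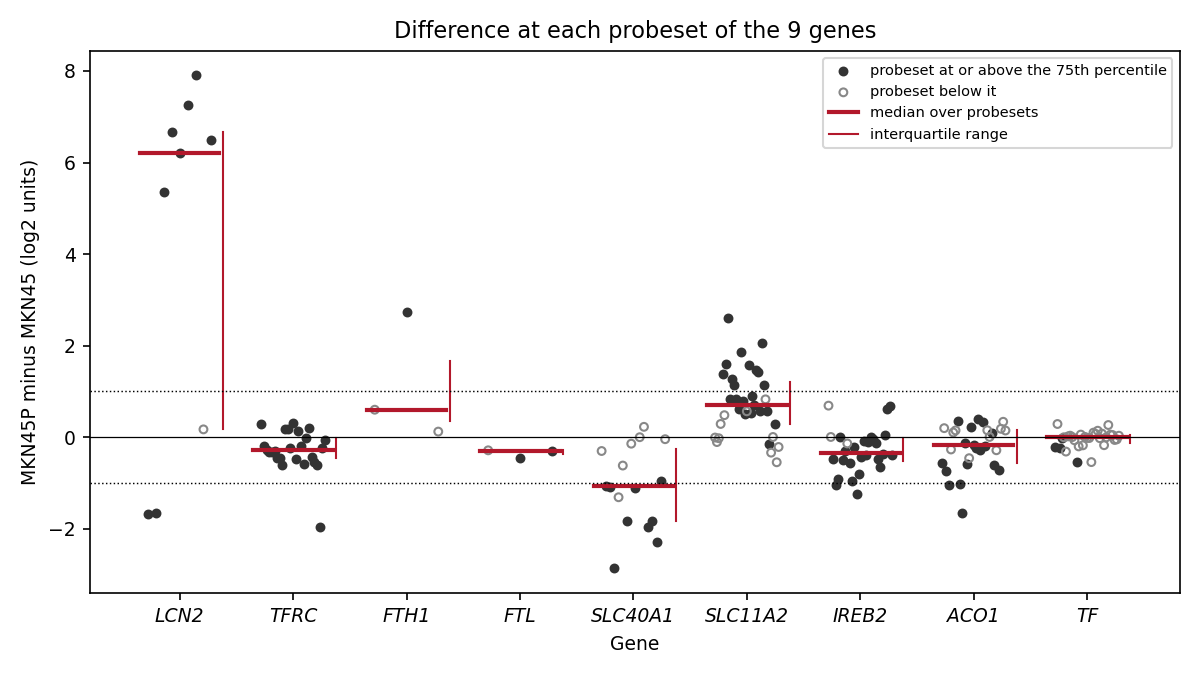
Difference between the lines (MKN45P minus MKN45, log2 units) at each probeset of the 9 genes, with filled points for probesets with signal, open points for those without, a thick line for the median, a thin line for the interquartile range and dotted lines at 2-fold. LCN2 has 6 probesets above 5 and 2 below -1, SLC40A1 lies mostly below 0 and SLC11A2 mostly above 0.

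The 250 bases before the start of LCN2 are shown because LCN2, chosen for its excess in MKN45P, had the highest median difference over probesets of the 13130 measured genes. By the difference of median levels it (6.17) came after CEACAM6 (6.94) and IFIT3 (6.19). They were taken from RefSeq (GRCh38.p14, chr9:128149203-128149452, plus strand). The capitals mark the single match on either strand to GGAATNTCC, letters of the kind bound by NF-kappaB, a factor known to drive LCN2 in inflamed epithelium. The match lies 175 to 167 bases before the start.
LCN2: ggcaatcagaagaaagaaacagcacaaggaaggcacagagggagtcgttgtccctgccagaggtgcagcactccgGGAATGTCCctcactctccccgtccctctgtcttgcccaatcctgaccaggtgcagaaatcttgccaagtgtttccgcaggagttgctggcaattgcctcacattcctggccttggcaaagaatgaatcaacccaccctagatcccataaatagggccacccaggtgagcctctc
The same letters occurred on either strand of 0.911% of 35116 RefSeq promoter windows of this length, and among the windows of the 8 genes that had one, FTH1 having none, only that of LCN2 held them. The letters GAAANNGAA, of the kind bound by interferon-activated factors, occurred in 6.88% of the windows and, among these genes, in IREB2 but not in LCN2. The first pattern was chosen with the LCN2 sequence in view, and a match of letters is not evidence of binding.

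At 6 of its 9 probesets LCN2 was well above the low end of the scale in MKN45P and close to it in MKN45. In order of probeset ID, MKN45P had 3.58, 3.29, 7.77, 8.79, 8.85, 9.71, 10.33, 1.89 and 8.59, and MKN45 had 5.25, 4.94, 2.41, 2.12, 2.63, 2.45, 2.43, 1.72 and 2.10. The gene difference was 6.22 (interquartile range 0.17 to 6.67), from median levels of 8.59 in MKN45P and 2.43 in MKN45. The probesets fell into 3 kinds. The third to seventh and the ninth were higher in MKN45P by 5.36 to 7.90, with MKN45P levels of 7.77 to 10.33 and MKN45 levels of 2.10 to 2.63. As those MKN45 levels are below 2.77, where the scale is compressed, no fold is given for them. The eighth, 3190206, was near the low end in both lines and differed by 0.17.

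The 2 LCN2 probesets of lowest ID went the other way. Probesets 3190192 and 3190195 had levels of 3.58 and 3.29 in MKN45P, against 5.25 and 4.94 in MKN45, differences of -1.67 and -1.64. In this gene they were also the only probesets above 2.77 in MKN45. Without them the difference of LCN2 was 6.49, a setting chosen after the values were seen. Across 235 genes of the plus strand of chromosome 9 the median probeset ID followed the RefSeq start with a Spearman rho of 0.9995, across genes that share the array design. If IDs run the same way within LCN2, these 2 probesets lie at its 5′ end; their own positions were not used here.

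**Figure D2:**
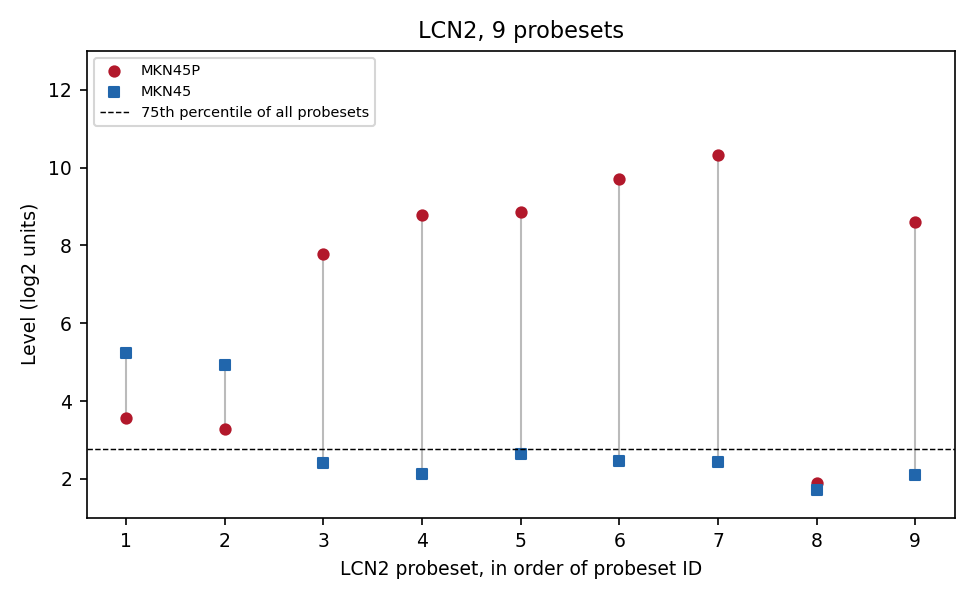
Level (log2 units) at each of the 9 LCN2 probesets in order of probeset ID, with circles for MKN45P, squares for MKN45 and a dashed line at the 75th percentile of all probesets. MKN45P is higher at 6 probesets by 5.36 or more, lower at the first pair and level with MKN45 at the eighth.

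Unnamed probesets and genes next to LCN2 had smaller differences than its 6 high probesets. The array has 5 probesets with IDs among those of LCN2 that the annotation leaves unnamed, and none of them had a level above 3.16 in MKN45P or 3.83 in MKN45; their differences ran from -0.72 to 1.06. SLC25A25, whose IDs come just before those of LCN2, had median levels of 4.51 in MKN45P and 3.91 in MKN45 and a difference of 0.35 (interquartile range 0.06 to 0.69 over 15 probesets). C9orf16, whose IDs come just after, had median levels of 2.76 in MKN45P and 2.66 in MKN45 and a difference of -0.20 (-0.48 to 0.02 over 6 probesets).

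The 5 measured genes closest to LCN2 in their pair of median levels were CEACAM6, IFITM1, IFIT3, IFI27 and SERPING1, at Euclidean distances of 0.61, 0.74, 0.90, 0.92 and 1.13 in log2 units. The likeness rests on 2 arrays. Median levels of these 5 genes were 7.52 to 9.09 in MKN45P and 1.78 to 2.98 in MKN45. The interquartile range over probesets was wide in CEACAM6 (2.06 to 7.12), IFIT3 (1.39 to 6.33) and IFI27 (0.78 to 6.53), as it was in LCN2.

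Markers of neutrophils, the cells best known for lipocalin 2, had median levels near the low end in both lines. Single probesets of some markers were higher, up to 8.84 in MKN45P and 9.32 in MKN45, both in PRTN3. Of 11 such markers on the array, none had a median level at or above 2.77 in MKN45P and 1 did in MKN45. The highest median level was 2.76 in MKN45P, against 3.08 in MKN45, and the levels summed to 22.9 in MKN45P and 24.2 in MKN45. All 7 measured ones had a negative difference, from -0.30 to -0.04. The leukocyte marker PTPRC had median levels of 1.65 in MKN45P and 1.66 in MKN45, and the granule protein gene LTF had 2.03 in MKN45P and 1.97 in MKN45. Of 6 macrophage markers none had a median level that reached 2.77 in either line, and these median levels summed to 11.99 in MKN45P and 11.70 in MKN45.

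Of 6 listed partners of lipocalin 2, 3 were measured, and these stayed within 2-fold. SLC22A17, a receptor proposed for lipocalin 2, had a difference of -0.16, and the matrix protease MMP9, which forms a complex with it, of -0.10. LGALS3, which encodes galectin 3, had a difference of 0.32. The median levels of MMP9 were low, 2.15 in MKN45P and 2.18 in MKN45, where the scale is compressed. Over probesets with signal the differences were -0.39 in SLC22A17 (11 probesets), -0.67 in MMP9 (4) and 0.02 in LGALS3 (8). How many of these had signal through 1 line alone was not counted. LRP2, the large endocytic receptor that takes up lipocalin 2 in the kidney, and BDH2, an enzyme linked to a mammalian siderophore, were below the level filter. HGF, the remaining partner listed, was below it too.

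None of 12 measured genes that induce LCN2 or are known to be induced with it was 2-fold apart, and their median difference was 0.02, beside 0.03 over all measured genes. CEBPB, a transcription factor of the acute phase, had a difference of 0.88 (0.59 to 1.34) and was higher in MKN45P at all 9 probesets, with median levels of 8.63 in MKN45P and 7.29 in MKN45. Its relative CEBPD had a difference of -0.71 (-0.92 to -0.61). STAT3 had a difference of 0.58, the NF-kappaB subunit gene RELA of 0.496, NFKB1 of -0.39 and NFKBIZ, the coactivator that LCN2 induction is known to need, of 0.01. Among the genes of this list with fewer than 4 probesets, SLPI, a secreted protease inhibitor, and CXCL1, a chemokine, had 3 each and went opposite ways. The median levels of SLPI were 9.94 in MKN45P and 8.18 in MKN45, with a difference of 1.76, and those of CXCL1 were 2.09 in MKN45P and 4.20 in MKN45, with a difference of -0.83.

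Of 11 other measured genes of the lipocalin family, 1 was 2-fold higher in MKN45P. This was RBP4, the retinol carrier of plasma, with a difference of 1.23 and a wide interquartile range of -0.02 to 2.88 over 8 probesets. Over its 5 probesets with signal the difference was 2.58, and how many of them had signal through MKN45P alone was not counted. APOD had a difference of 0.27, C8G of -0.28 and the epididymal lipocalins LCN6 and LCN12 of -0.19 and -0.18. The median of the family was -0.08, and 9 of the 11 had a median level below 2.77.

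Ferroportin, SLC40A1, was lower in MKN45P. In order of probeset ID, MKN45P had 1.73, 2.53, 4.65, 4.47, 1.95, 2.45, 4.31, 1.70, 2.76, 1.60, 2.29, 3.09, 5.66, 4.01, 3.01 and 1.69, and MKN45 had 2.03, 3.60, 5.74, 7.33, 3.25, 3.07, 6.13, 1.84, 3.86, 1.60, 2.06, 5.06, 7.49, 6.30, 3.97 and 1.73. The difference of the gene was -1.07 (interquartile range -1.82 to -0.26), the 135th lowest of 13130, from median levels of 2.65 in MKN45P and 3.73 in MKN45. MKN45P was lower at 14 of the 16 probesets, and the other 2 were near the low end in both lines.

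At the 9 SLC40A1 probesets with signal the median difference was -1.82 (range -2.86 to -0.96), and 8 were at least 2-fold lower. Of the 9, 2591860 and 2591875 were below 2.77 in MKN45P and passed through their level in MKN45. The 7 probesets at or above 2.77 in each line had a median of -1.83, and 6 of them were at least 2-fold lower. Among all 139760 probesets with signal and exactly 1 symbol, 7.93% were lower in MKN45P by 2-fold or more and 17.0% were higher by as much. These shares were not counted for probesets at or above 2.77 in each line. The lowest values were at 2591864 (4.47 in MKN45P, 7.33 in MKN45) and 2591888 (4.01 in MKN45P, 6.30 in MKN45). With the differences centred within bins of level, the gene was at -0.96 and so just short of 2-fold.

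SLC11A2, the importer that moves ferrous iron across endosomal and apical membranes, had a positive difference of 0.70 (interquartile range 0.29 to 1.21), from median levels of 5.13 in MKN45P and 3.53 in MKN45. Its 35 probesets ran from 1.57 to 9.61 in MKN45P and from 1.58 to 9.04 in MKN45. MKN45P was higher at 28 of them, and at 23 of the 24 with signal. Of those 24, 11 passed 2-fold upward and none downward, beside 17.0% upward and 7.93% downward of all probesets with signal and exactly 1 symbol. Probesets 3454590 and 3454591, both among the 11, were below 2.77 in MKN45 and had signal through their level in MKN45P. At the 22 probesets at or above 2.77 in each line the median difference was 0.83, with 9 past 2-fold upward and none downward. The share of all probesets at or above 2.77 in each line that passed 2-fold was not counted.

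The size of the SLC11A2 difference varied between probesets and depended on how they were summarised. The highest differences were 2.595 at probeset 3454585 (6.995 in MKN45P, 4.40 in MKN45) and 2.05 at 3454617 (6.63 in MKN45P, 4.58 in MKN45). The lowest were -0.55 at 3454633 and -0.34 at 3454630, both below 2.77 in both lines. Probesets at both ends of the ID order had low levels and small differences. The 6 of highest ID, 2 of them with signal, did not exceed 3.62 in MKN45P or 3.33 in MKN45 and differed by -0.55 to 0.29, and the 4 of lowest ID, none with signal, differed by -0.10 to 0.29. The difference between the median levels of the lines was 1.60, past 2-fold, whereas the median of the probesets' differences was not.

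**Figure D3:**
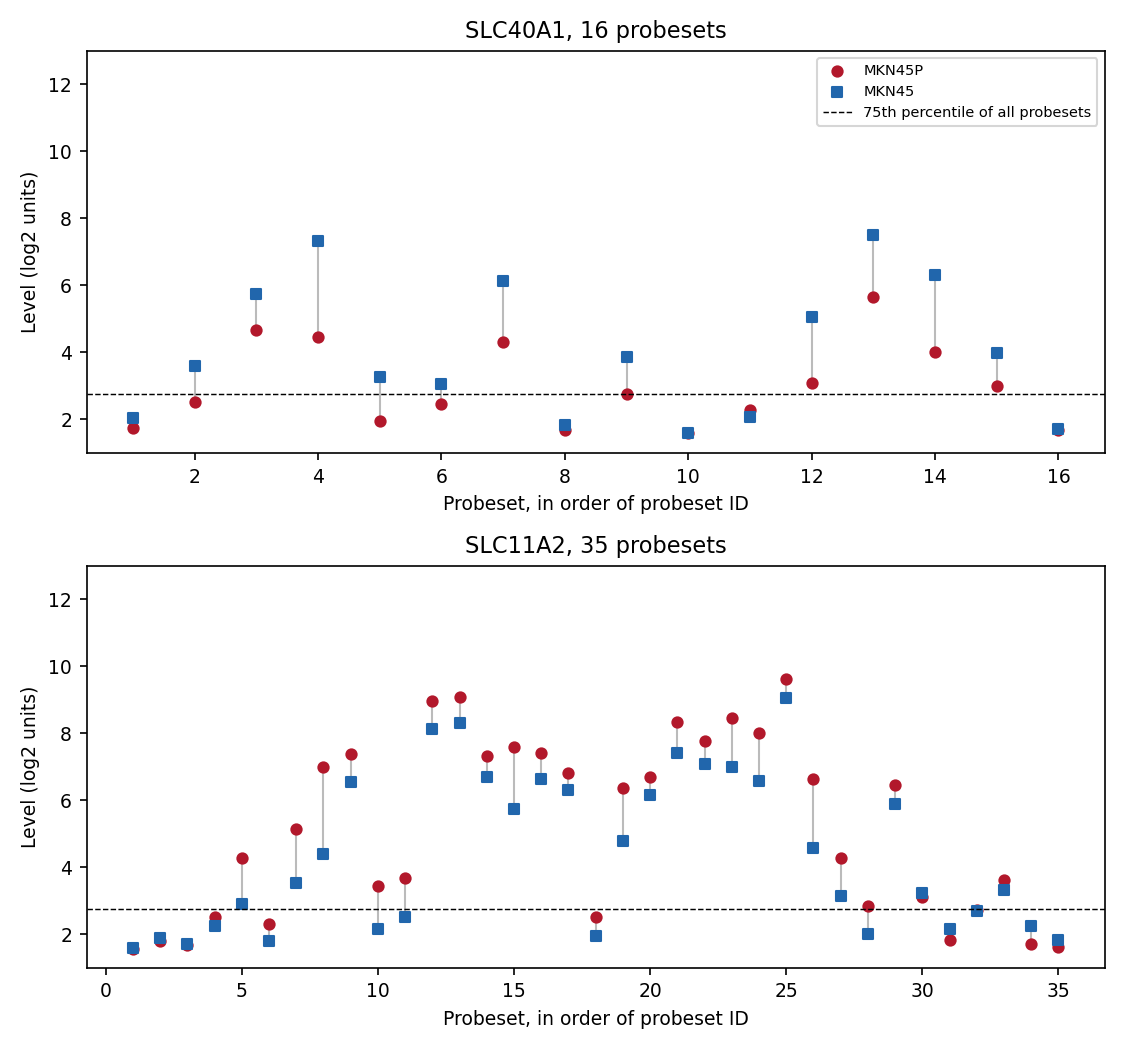
Level (log2 units) at each probeset of the exporter gene SLC40A1 (16 probesets) and the importer gene SLC11A2 (35 probesets), in order of probeset ID, with circles for MKN45P, squares for MKN45 and a dashed line at the 75th percentile of all probesets. MKN45P is lower at every SLC40A1 probeset with signal and higher at 23 of 24 such probesets of SLC11A2.

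The transferrin receptor gene TFRC had a small negative difference of -0.29 (interquartile range -0.46 to -0.01). All 25 probesets had signal, from 2.35 to 11.02 in MKN45P (median 8.27) and from 3.83 to 11.33 in MKN45 (median 8.32). MKN45P was lower at 19 probesets and higher at 6. The lowest differences were -1.96 at 2712681 (2.35 in MKN45P, 4.31 in MKN45) and -0.61 at 2712652, and the highest were 0.31 at 2712664 and 0.28 at 2712638. Only 2712681 was past 2-fold.

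The iron regulatory proteins differed by less than 2-fold as genes. IREB2 had a difference of -0.33 (interquartile range -0.52 to -0.03), with median levels of 6.295 in MKN45P and 6.52 in MKN45, and it was lower in MKN45P at 21 of 28 probesets. Its lowest differences were -1.25 at 3603365 (4.78 in MKN45P, 6.03 in MKN45) and -1.03 at 3603349. Its highest were 0.69 at 3603337, which was below 2.77 in both lines, and 0.68 at 3603381, next to a probeset with 0.62.

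ACO1, whose protein is an aconitase when it holds an iron-sulphur cluster and an RNA-binding protein when it does not, had a difference of -0.16 (-0.57 to 0.15), with median levels of 3.20 in MKN45P and 3.76 in MKN45. It was lower in MKN45P at 16 of 29 probesets and higher at 13. Its lowest differences were -1.65 at 3166503 (4.84 in MKN45P, 6.48 in MKN45) and -1.05 at 3166494 (5.52 in MKN45P, 6.57 in MKN45), and its highest were 0.39 at 3166515 and 0.36 at 3166501. Of its 18 probesets with signal 3 were at least 2-fold lower and none was 2-fold higher. Of all probesets with signal and exactly 1 symbol, 7.93% were lower and 17.0% higher by as much.

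**Figure D4:**
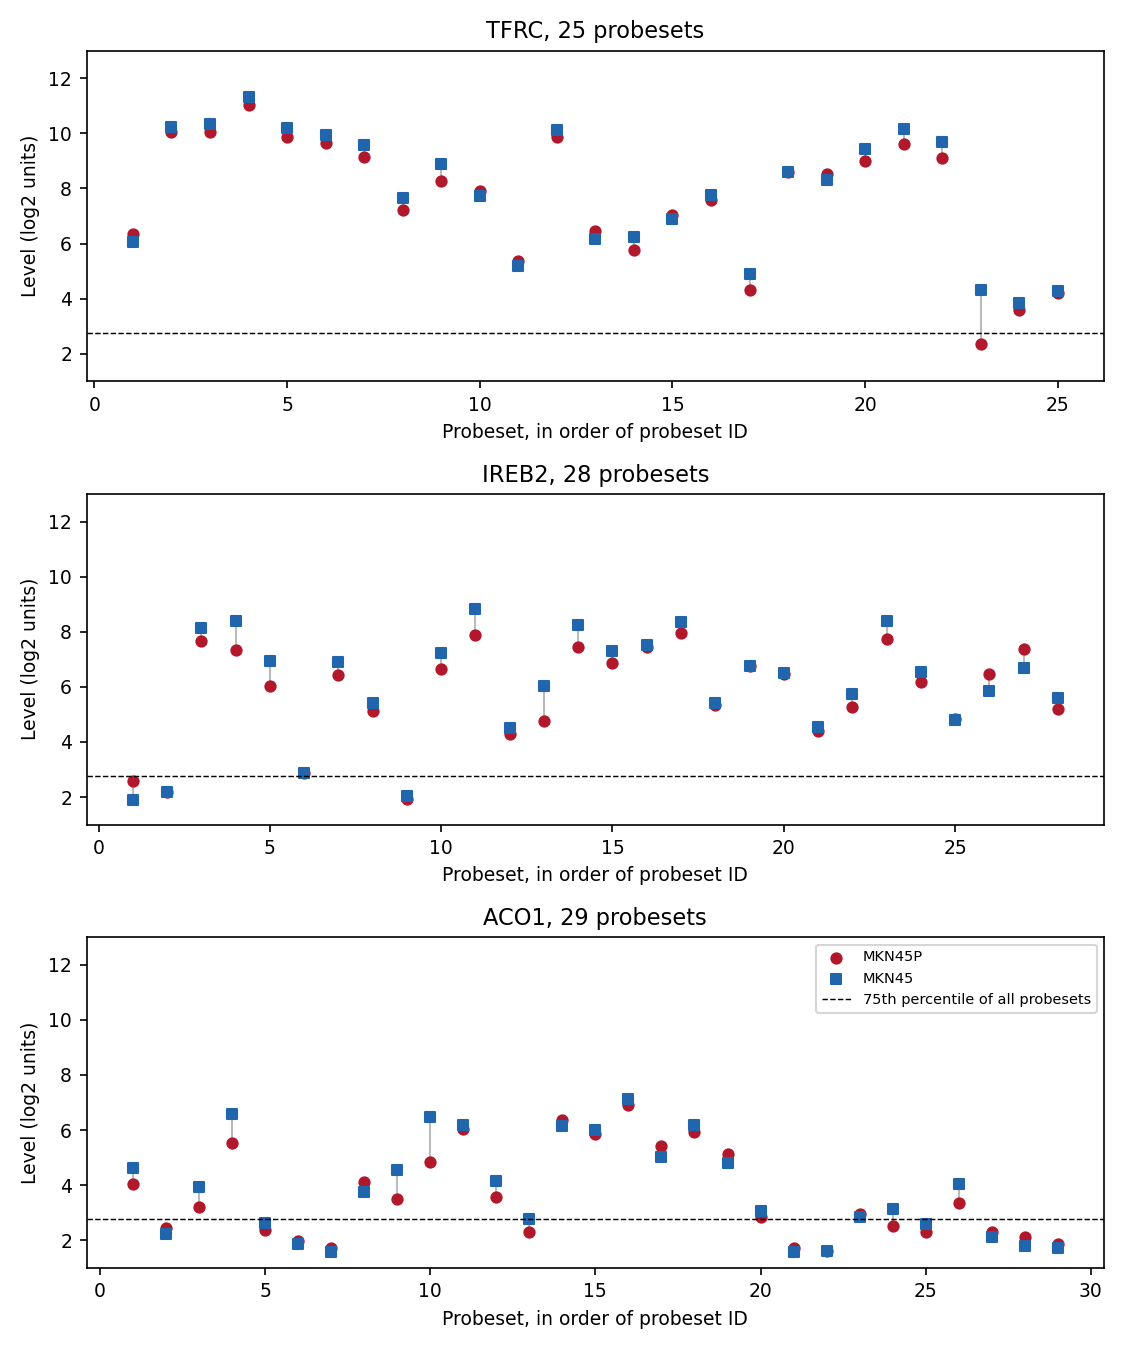
Level (log2 units) at each probeset of TFRC (25 probesets), IREB2 (28) and ACO1 (29), in order of probeset ID, with circles for MKN45P, squares for MKN45 and a dashed line at the 75th percentile of all probesets. The lines lie within 2-fold at all but 1 probeset of TFRC, 2 of IREB2 and 3 of ACO1.

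The ferritin chains are shown with the element that the iron regulatory proteins read. The 30 bases from 21 to 50 of the FTL transcript are given from RefSeq (GRCh38.p14, chr19:48965329-48965358, plus strand), with capitals on CAGTGN, the letters of the loop of an iron-responsive element.
FTL: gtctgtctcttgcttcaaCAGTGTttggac
Those letters, at 39 to 44 from the start, occurred on the transcript strand of the first 50 bases in 6.36% of 35116 windows. Among the 8 of the 9 genes that had a window, FTL alone held them. FTH1 had no window, and letters further along a transcript were not looked for.

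Neither ferritin gene reached 4 probesets. The 3 FTH1 probesets had 2.67, 8.37 and 2.60 in MKN45P, and 2.06, 5.63 and 2.47 in MKN45. Probeset 3375650, the only one with signal, was higher in MKN45P by 2.75, and the other pair, below 2.77 in both lines, differed by 0.60 and 0.12. Unnamed probesets with IDs among those of FTH1 were higher in MKN45P as well, all 7 of them, by 0.29 to 1.59.

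The 3 FTL probesets had 1.88, 2.98 and 5.43 in MKN45P, and 2.16, 3.43 and 5.73 in MKN45. All 3 were lower in MKN45P, by -0.28, -0.45 and -0.29. Both ferritin genes have many processed pseudogenes in the human genome whose sequence can match the same probes, so their values are uncertain.

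Transferrin, the iron carrier of plasma made mainly by the liver, was near the low end in both lines. The 31 TF probesets had median levels of 1.80 in MKN45P and 1.78 in MKN45, and their differences ran from -0.55 at 2643252 and -0.54 at 2643273 to 0.27 at 2643282 and 0.29 at 2643236. Probeset 2643237 stood apart, at 7.70 in MKN45P and 7.93 in MKN45, while no other TF probeset exceeded 3.23 in either line. Of 8 hepatocyte markers 1, the hepcidin gene HAMP, reached a median level of 2.77 in each line, with 3.04 in MKN45P and 3.51 in MKN45 over 3 probesets. Of 7 erythroid markers 1 reached it in each line, and of 7 fibroblast markers 1 did in MKN45P and none in MKN45.

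Other genes of iron handling differed little as a group. Of 72 listed genes 67 were matched and 54 measured; 2 passed 2-fold upward in MKN45P and none downward, beside 4.58% and 1.20% of all measured genes. Their median difference was 0.05 (interquartile range -0.09 to 0.32). The 2 were NUBP1, a scaffold for cytosolic iron-sulphur clusters, with 1.38 (0.96 to 1.92, higher at all 7 probesets), and BLVRB, which reduces biliverdin after haem is broken down, with 1.15 (0.08 to 1.75 over 9 probesets).

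The genes of iron uptake and release, 12 measured, had a median of -0.001 and none past 2-fold. The endosomal ferrireductase STEAP3 had a difference of -0.57, and its relative STEAP2 of 0.41. The lysosomal channel MCOLN1 had -0.43, and TFR2, a second transferrin receptor best known in liver, -0.36. The ferroxidase genes HEPH and CP, which work with ferroportin, were below the level filter.

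Among 5 measured genes of storage and iron chaperones, PCBP1, which delivers iron to ferritin, had a difference of 0.995 (0.42 to 1.53), just under 2-fold. FBXL5, the ligase subunit that degrades IREB2 protein when iron is ample, had 0.31, and NCOA4, the receptor for ferritin breakdown, -0.15. Of 7 measured genes of systemic iron regulation the largest difference was that of the BMP receptor BMPR1A, 0.39.

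In the haem list, 18 genes were measured with a median of 0.06. After BLVRB came SLC48A1, which exports haem from endosomes (0.92), UROS (0.78), ALAS1, the first enzyme of haem synthesis outside red cells (0.59), and ALAD (-0.33). The haem oxygenase gene HMOX1 had a difference of -0.31 over 7 probesets.

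Genes of iron-sulphur cluster assembly had a median of 0.08 over 12 measured genes and wider spreads between probesets. NFU1, HSCB and ISCU had differences of 0.83, 0.58 and 0.56, with interquartile ranges reaching 2.88, 2.38 and 1.94. Over their probesets with signal the differences were 2.60 in NFU1, 2.32 in HSCB and 2.10 in ISCU. A probeset can have signal through MKN45P alone, and how many did so in these genes was not counted. HSPA9 had 0.47, and the cysteine desulphurase NFS1 had -0.31. Counted over probesets with signal only, 6 of 46 measured iron genes were at least 2-fold higher (NUBP1, BLVRB, SLC48A1, NFU1, HSCB and ISCU), where 11.4% of all genes measured in that way were.

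**Figure D5:**
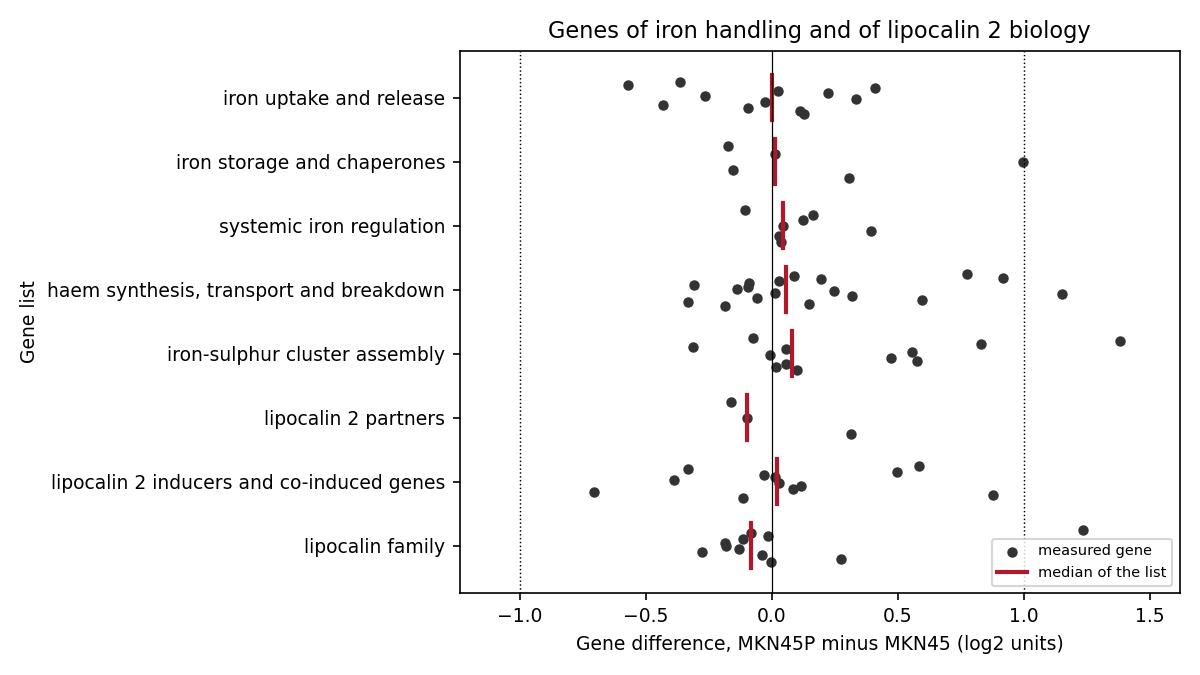
Gene difference (MKN45P minus MKN45, log2 units) of each measured gene in 8 lists of iron handling and lipocalin 2 biology, with a thick line at each list's median and dotted lines at 2-fold. Most genes lie within 2-fold, and NUBP1, BLVRB and RBP4 lie past it.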

How the data were processed

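Log2 signals of 2 Affymetrix exon arrays, 1 per line, were used as the authors deposited them; the scale was read from the values. Partek and hg18 are named per the submitters' processing notes; how background, probe summary and scaling were handled is not given in the sources used here. Symbols came from the platform annotation, where 3137 probesets had several symbols and 587978 none; older names were matched through RefSeq (GRCh38.p14). The members and lists were chosen with earlier results of these data known. Named were all 9 genes and, in each list, genes past 2-fold and up to 4 others of large difference; NFKB1, NFKBIZ, SLPI, CXCL1, HMOX1, NFS1, markers and genes below the level filter were added after their values were seen. Gene differences were medians over probesets, computed with Python 3.11.15, numpy 2.4.6 and pandas 2.3.3. The code was also run on these data with known shifts put into some genes. Recovery of those shifts was fixed in advance, so that run checked the code alone. Precision is limited by the number of arrays. Other summaries, filters, probeset minimums and scalings were tried; quantile normalization and centring within 50 bins of level were among the scalings.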

Additional observations from a re-analysis of the deposited data

How the results depend on the processing

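Of 132 values under other settings 116 stayed within the interquartile range of the gene's probesets or, for counts, within 1.5 times. No gene past 2-fold changed sign. Part of the 116 was fixed in advance. Changing the probeset minimum or the level filter, or leaving out the probesets of highest and lowest difference, cannot move a gene's median. The interquartile range of LCN2, 0.17 to 6.67, was also wide, so a large fall would still lie within it. The 116 is therefore no measure of robustness. LCN2 ranged from 4.09 to 6.49, SLC40A1 from -1.83 to -0.96, SLC11A2 from 0.61 to 1.60, TFRC from -0.36 to -0.05, IREB2 from -0.45 to -0.22 and ACO1 from -0.56 to -0.14. With the difference of median levels FTH1 was at 0.19, FTL at -0.45 and SLC11A2 at 1.60, so that 2 members were 2-fold higher. Of 54 iron list genes 5 were then 2-fold higher and 1 lower, beside 9.62% and 2.32% of all genes measured. Over probesets with signal FTH1 was at 2.75 and TF at -0.22. There 6 of 46 iron list genes were 2-fold higher, beside 11.4% of all genes measured in that way. With the mean of probesets 6 of 54 iron list genes were 2-fold higher, beside 4.91% of all genes measured. With at least 10 probesets, which leaves out LCN2 and both ferritin genes, 0 members and 0 iron list genes were 2-fold higher. The share of all genes measured was then 4.83%. FTL was at -0.27 with arrays centred on their medians and at -0.40 with quantile normalization. Centred within bins of level, 0 members were 2-fold lower. Over all genes measured, taking median levels gave 1263 higher and 305 lower, and probesets with signal gave 1218 and 313, against 602 and 157. The causes were not tested. Over probesets at or above 2.77 in each array SLC40A1 was at -1.83. That setting, that without the first 2 LCN2 probesets and that with at least 3 probesets were chosen after seeing the data. No paired analysis was possible because each line had 1 array. Without detection calls, signal over background could not be judged for single probesets.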

Other observations

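Probesets that the annotation leaves unnamed, with IDs among those of the 9 genes, gave further values. Of 7 such probesets in the ACO1 range, 3166488 had 8.67 in MKN45P and 9.39 in MKN45, and 3166487 had 3.04 in MKN45P and 4.07 in MKN45. In the FTH1 range 3375661 had 5.71 in MKN45P and 4.13 in MKN45, and 3375658 had 5.11 in MKN45P and 3.60 in MKN45. In the SLC11A2 range 3454625 had 3.66 in MKN45P and 2.48 in MKN45, and none of the 15 there was above 3.87 in either line. The 8 in the SLC40A1 range stayed at or below 2.27 in MKN45P and 2.44 in MKN45.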
